A study of Arabidopsis thaliana with 12 samples.

Results

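The genes described here are KCS1 (AT1G01120), a 3-ketoacyl-CoA synthase of wax biosynthesis, and AT3G22600, AT4G12520 and AT1G62510, each annotated as a bifunctional inhibitor/lipid-transfer protein/seed storage 2S albumin superfamily protein. They were chosen by locus identifier, and all 4 are among the 608 genes of the deposited leaf table. None is among the 65 genes of the root table, and 656 genes are in either table. In spaceflight leaves the lipid transfer protein genes AT3G22600 and AT4G12520 rose, AT1G62510 fell, and KCS1 was lower by just under 2-fold. In roots none of the 4 passed the same test, which only 1 of the 608 genes (0.164%) passed there.

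Seedlings of *Arabidopsis thaliana*, wild-type Wassilewskija (WS) with no mutation or transgene named, were grown from seed for 11 days on plates under LED light in the Veggie unit, on the International Space Station (spaceflight) or, after a delay, in a matching unit on the ground (ground control). RNA-seq was performed on leaves and roots of 3 spaceflight plates and 3 ground control plates, with 3 plants of each plate pooled, which gives 12 libraries in 4 groups of 3: spaceflight leaf, ground control leaf, spaceflight root and ground control root. All groups shared the seed line, the medium and the fixation in RNAlater, so spaceflight here stands for everything that differed between the station and the ground chamber. The paper describes dissected roots, while the extraction text of the labels speaks of root tips, so how much of the root was sampled is uncertain.

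The leaf and root tables hold only genes that the authors called in that organ (FDR below 0.05, change of 2-fold or more). They hold fewer genes than the paper counts at these thresholds, so a gene that is in neither table here may still have been called. The leaf difference of the 4 genes was therefore part of what put them in the table, and its test is no independent evidence. Values are FPKM, fragment counts scaled to transcript length and to the size of the library, which allow levels of different genes to be compared per length. No counts were at hand, library depths are unknown, and precision is given by the spread between plates. Differences are on the scale of log2(FPKM + 1). The words rose and fell are kept for a Benjamini-Hochberg adjusted p under 0.05 in limma together with a change of at least 2-fold on that scale.

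Groups were taken from the sample titles. A check was needed, since the labels' material field names roots for the leaves of the ground control and leaves for the roots in spaceflight. BGLU21, a beta-glucosidase and the only 1 of 20 root markers in the leaf table, stood at 0.340 to 2.12 FPKM in the 6 libraries titled leaf and at 521 to 968 FPKM in the 6 titled root. LHCB2.2, a light-harvesting protein and 1 of the 3 among 20 leaf markers that are in the root table, stood at 584 to 2536 FPKM in the libraries titled leaf and at 11.7 to 50.5 FPKM in those titled root. Both markers went with the titles in all 12 libraries. Spaceflight leaf replicate 1 stood apart among the leaves, with the lowest level of all 3 leaf markers. LHCB2.2 had 584, 1795 and 1493 FPKM in spaceflight leaf replicates 1, 2 and 3, against 2202, 2536 and 2421 FPKM in ground control leaves. LHCB1.2 (AT1G29910) had 4437, 9911 and 9459 FPKM in spaceflight leaves, against 9418, 12981 and 11518 FPKM in ground control leaves. LHCB4.2 (AT3G08940) had 1201, 2446 and 2532 FPKM in spaceflight leaves, against 2058, 2311 and 2118 FPKM in ground control leaves. Results that rest on this library are given with and without it, and its part in them was not tested. The other 19 root markers and 17 leaf markers are in neither table and were not analysed here. The same holds for all 5 markers of the shoot epidermis.

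The aerial surface of a plant is covered by the cuticle, a layer of cutin and wax. Its wax derives from very-long-chain fatty acids, which the fatty acid elongase in the endoplasmic reticulum builds in repeated cycles. A 3-ketoacyl-CoA synthase such as KCS1 catalyses the first, condensing step of each cycle and sets the chain length. Plant lipid transfer proteins are small secreted proteins in which 8 conserved cysteines form disulfide bridges around a hydrophobic cavity. Some of them carry a glycosylphosphatidylinositol (GPI) anchor to the plasma membrane and take part in the export of surface lipids, and others act in defence or lie in the cell wall next to a proline-rich domain. In roots the same lipid classes enter suberin, the barrier of the endodermis and of older root surfaces.

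The coding sequences show what the lipid transfer protein genes share. The sequences are those of the Columbia reference TAIR10.1 with RefSeq annotation, looked up by locus, and WS alleles may differ from them. Each stretch below is shown because it holds the 8 cysteines that define the family, whose codons are in capitals, and it runs 5′ to 3′ on the coding strand. That of AT3G22600 lies on the minus strand at chr3:8007083-8007316, that of AT4G12520 on the minus strand at chr4:7421285-7421533 and that of AT1G62510 on the minus strand at chr1:23136635-23136883.
AT3G22600: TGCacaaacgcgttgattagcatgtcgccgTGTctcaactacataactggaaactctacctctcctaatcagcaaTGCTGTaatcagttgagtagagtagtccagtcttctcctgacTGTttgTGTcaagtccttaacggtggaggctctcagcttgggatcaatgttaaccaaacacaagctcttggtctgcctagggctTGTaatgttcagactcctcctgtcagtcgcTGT
AT4G12520: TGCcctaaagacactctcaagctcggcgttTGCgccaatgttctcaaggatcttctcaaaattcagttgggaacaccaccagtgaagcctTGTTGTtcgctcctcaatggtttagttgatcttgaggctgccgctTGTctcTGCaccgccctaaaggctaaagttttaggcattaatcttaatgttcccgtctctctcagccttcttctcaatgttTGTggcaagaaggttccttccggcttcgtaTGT
AT1G62510: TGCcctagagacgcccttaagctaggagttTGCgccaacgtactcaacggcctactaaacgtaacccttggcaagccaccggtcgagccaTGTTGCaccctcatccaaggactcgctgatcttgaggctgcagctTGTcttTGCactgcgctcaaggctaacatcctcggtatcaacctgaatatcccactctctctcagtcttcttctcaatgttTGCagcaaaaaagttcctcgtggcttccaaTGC

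The motif has the order C, C, CC, CXC, C, C in all 3 genes. Between the cysteines AT4G12520 and AT1G62510 have the same spacing of 9, 19, 13, 1, 24 and 9 residues, whereas AT3G22600 has 9, 14, 12, 1, 25 and 9. Over this stretch AT4G12520 and AT1G62510 share 182 of 249 bases (73.1%) and 63 of 83 encoded residues (75.9%). With the same spacing, these genes had opposite expression in these libraries: AT4G12520 was a root transcript that rose in spaceflight leaves, and AT1G62510 a leaf transcript that fell there.

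AT4G12520 has a close copy, AT4G12510, which ends 3077 bases before it on the same strand of chromosome 4. Their coding sequences are both 390 bases long and differ at 2 bases, with an identical run of 371 bases and the same encoded protein. The stretch that holds both differing bases is shown because it is all that separates the copies within the coding sequence, with those bases in capitals. It lies on the minus strand at chr4:7421282-7421309 in AT4G12520 and at chr4:7417417-7417444 in AT4G12510.
AT4G12520: gaaggttccttcCggCttcgtatgtgct
AT4G12510: gaaggttccttcTggTttcgtatgtgct
AT4G12510 is in neither table and was not analysed here. Reads from most of the coding sequence fit both genes, so the FPKM of AT4G12520 depends on how RSEM divided them and is uncertain to that extent.

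KCS1 lies on the minus strand of chromosome 1 from 57164 to 59215, in 1 exon with 1587 coding bases. It was expressed in every library, more evenly than the others. Spaceflight leaves had 32.2, 24.9 and 21.1 FPKM, and ground control leaves had 45.0, 50.2 and 57.2 FPKM. Every spaceflight leaf library was below every ground control leaf library. The means were 26.0 ± 5.63 and 50.8 ± 6.13 FPKM (SD, n = 3 each), a ratio of 0.513. On the log2 scale the difference was -0.95 (standard error 0.29, limma adjusted p = 0.00943), past the p threshold and below the 2-fold threshold. It was past both thresholds when either of 2 libraries was left out, at -1.11 without spaceflight leaf replicate 1 and at -1.03 without ground control leaf replicate 1. In roots KCS1 stood at 64.1, 70.2 and 63.1 FPKM in spaceflight and at 74.4, 83.1 and 68.1 FPKM on the ground, and these ranges overlapped. The root difference was -0.19 on the log2 scale, with a 95% interval of -0.45 to 0.07 (limma adjusted p = 0.323). By mean level the order was ground control root, spaceflight root, ground control leaf, spaceflight leaf, and only the first and second overlapped.

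AT3G22600, with the RefSeq synonym LTPG5, is a GPI-anchored lipid transfer protein by that annotation. It lies on the minus strand of chromosome 3 from 8006249 to 8007836, in 3 exons with 513 coding bases. It had 10.1, 8.98 and 25.15 FPKM in spaceflight leaves, against 3.04, 1.21 and 2.76 FPKM in ground control leaves. All spaceflight leaves were above all ground control leaves, and spaceflight leaf replicate 3 was far above the others. The means of 14.8 ± 9.02 and 2.34 ± 0.986 FPKM (SD, n = 3 each) were 6.32-fold apart, and 4.09-fold apart without spaceflight leaf replicate 3. The gene rose, with a log2 difference of 2.15 (standard error 0.40, limma adjusted p = 0.000895), which ranked 49 from the highest of 608 genes. In roots it had 335, 297 and 354 FPKM in spaceflight and 353, 391 and 346 FPKM on the ground. The root ranges overlapped, and the difference was -0.14 with a 95% interval of -0.40 to 0.11 (limma adjusted p = 0.439). Both root groups thus stood far above spaceflight leaf, which stood above ground control leaf.

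AT4G12520 lies on the minus strand of chromosome 4 from 7420951 to 7421828, in 1 exon. Spaceflight leaves had 19.2, 13.3 and 7.66 FPKM, and ground control leaves had 2.86, 6.71 and 5.79 FPKM. The groups did not overlap, although the lowest spaceflight leaf was close to the highest ground control leaf. The means were 13.4 ± 5.77 and 5.12 ± 2.01 FPKM (SD, n = 3 each), 2.61-fold apart. The gene rose, with a log2 difference of 1.21 (standard error 0.38, limma adjusted p = 0.0104). The call was lost without spaceflight leaf replicate 1, the library lowest for the leaf markers, at 0.92 (limma adjusted p = 0.0348), and without ground control leaf replicate 1, at 0.91 (limma adjusted p = 0.0595). In roots AT4G12520 had 516, 431 and 512 FPKM in spaceflight and 698, 657 and 541 FPKM on the ground. Here every spaceflight root was below every ground control root, with a log2 difference of -0.38 and a 95% interval of -0.70 to -0.05. This did not pass the test across genes (limma adjusted p = 0.135). The order of the groups, ground control root, spaceflight root, spaceflight leaf and ground control leaf, held without overlap between neighbours.

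AT1G62510 lies on the minus strand of chromosome 1 from 23136366 to 23137254, in 1 exon with 450 coding bases. It overlaps the antisense gene AT1G62515. The sources disagree on the library kit and hence on whether strand was kept, so reads of these neighbours may not have been told apart. Its spaceflight leaves had 21.4, 43.9 and 30.4 FPKM, against 72.95, 77.3 and 60.8 FPKM in ground control leaves. The groups did not overlap, and the means were 31.9 ± 11.3 and 70.3 ± 8.54 FPKM (SD, n = 3 each). The gene fell, with a log2 difference of -1.17 (standard error 0.32, limma adjusted p = 0.00588). Without spaceflight leaf replicate 1, its lowest leaf library and the one lowest for the leaf markers, the difference was -0.92, below the 2-fold threshold (limma adjusted p = 0.0137). In roots it had 11.1, 8.77 and 4.23 FPKM in spaceflight and 6.81, 6.57 and 6.31 FPKM on the ground. The spaceflight roots spread on either side of the tight ground control roots, and the difference was 0.17 with a 95% interval of -0.55 to 0.89 (limma adjusted p = 0.766). Its sign turned, to -0.081, without spaceflight root replicate 1. Without spaceflight root replicate 3 the root difference was 0.52 (limma adjusted p = 0.0531), so its size depended on single libraries in both directions. Ground control leaf was the highest group, spaceflight leaf the next, and both root groups were lowest and overlapped.

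**Figure D1:**
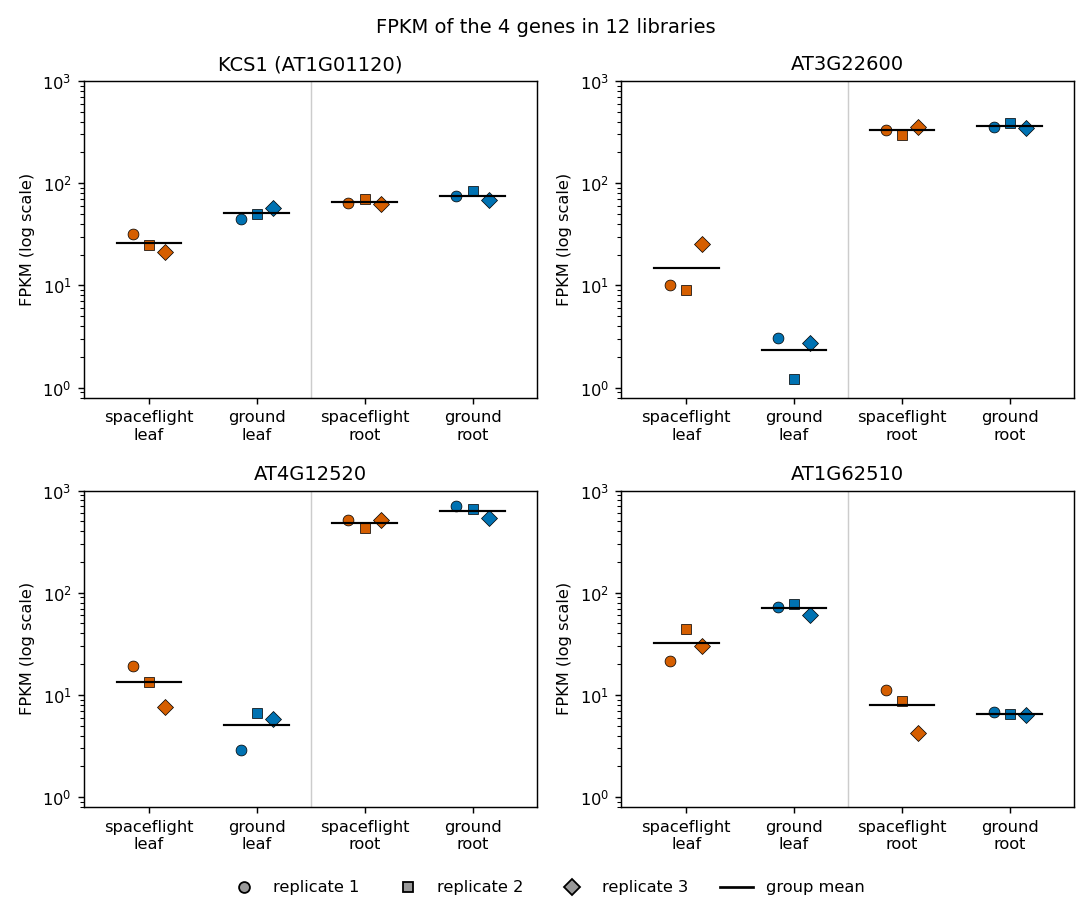
FPKM of KCS1, AT3G22600, AT4G12520 and AT1G62510 on a log axis in spaceflight leaf, ground control leaf, spaceflight root and ground control root, with 1 symbol per library and a line at the mean of each group of 3. In leaf the spaceflight and ground control libraries are apart for all 4 genes, whereas in root they are apart only for AT4G12520.

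In leaf, limma called 3 of the 4 genes past both thresholds, 2 higher and 1 lower. Of all 608 listed genes 74.5% passed, 58.1% higher and 16.4% lower, so passing is the common state of the table from which the genes come. The groups did not overlap for 4 of 4 genes, 2 higher and 2 lower, against 91.8% of listed genes, 68.1% higher and 23.7% lower. The median log2 difference of the 4 genes was 0.13 and that of all listed genes 1.09. RNA from bulk tissue was measured, so fewer cells of a type and less RNA per cell cannot be told apart. In root, limma called 0 of the 4 genes and 1 of the 608 rows (0.164%), a background count that moved between 0 and 23 with the processing and the rows used. The 23 came when the genes that the authors listed for root were added to the rows. At an unadjusted p under 0.05 there was 1 of the 4, AT4G12520, and 27.3% of the rows. The root groups did not overlap for 1 of the 4 genes, which was lower, against 30.4% of the rows, 19.1% higher and 11.3% lower. The median root difference was -0.17 for the 4 genes and 0.04 for all rows.

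The spaceflight difference was not the same in leaf and root. In a fit of all 12 libraries, the leaf difference minus the root difference was 2.29 for AT3G22600 (standard error 0.46, limma adjusted p = 0.00169) and 1.58 for AT4G12520 (standard error 0.44, limma adjusted p = 0.0081). It was -1.34 for AT1G62510 (standard error 0.43, limma adjusted p = 0.0146) and -0.77 for KCS1 (standard error 0.28, limma adjusted p = 0.0264). All 4 passed, 2 higher and 2 lower, against 75.8% of the listed genes, 57.2% higher and 18.6% lower. The leaf part of this contrast is again what listed the genes. With leaf and root of the same replicate number paired, KCS1 no longer passed (limma adjusted p = 0.0526). It also failed without spaceflight root replicate 2 (0.0558), ground control leaf replicate 3 (0.0577), ground control root replicate 1 (0.0526) or ground control root replicate 3 (0.0641). The other 3 genes passed in every alternative run.

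**Figure D2:**
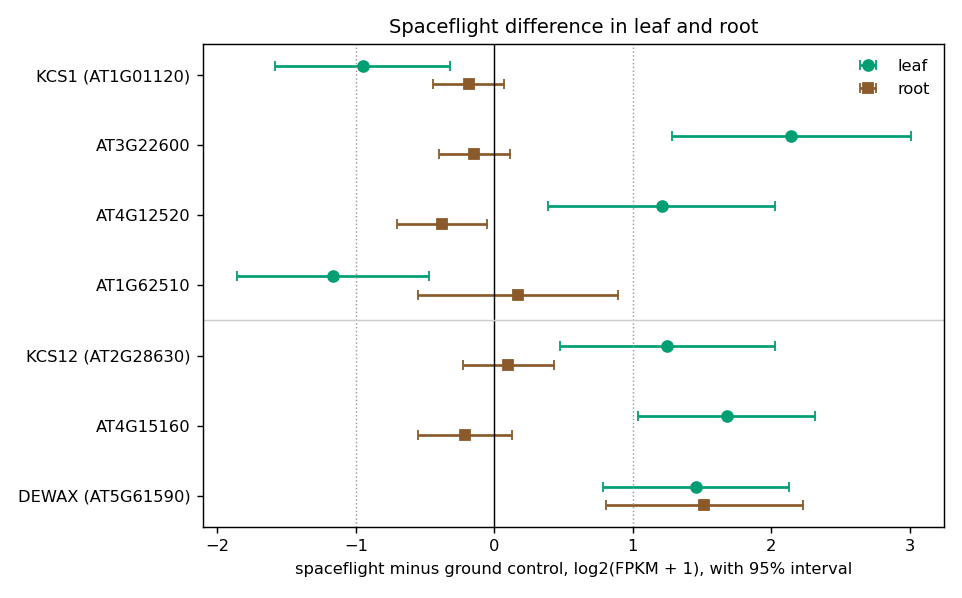
Spaceflight minus ground control on the log2(FPKM + 1) scale in leaf (circles) and root (squares), with 95% intervals from limma, for the 4 genes (upper part) and for KCS12, AT4G15160 and DEWAX (lower part); dotted lines mark a 2-fold change. The leaf intervals of AT3G22600, AT4G12520, AT1G62510 and KCS1 exclude 0, and of their root intervals only that of AT4G12520, -0.70 to -0.05, does.

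Organ differences were not used to list the genes, although they share the leaf libraries that were. They were far larger than the spaceflight differences for the lipid transfer proteins. On the ground AT3G22600 was 155-fold and AT4G12520 124-fold higher in root than in leaf by their means. The ground control leaf means in these folds were low, 2.34 and 5.12 FPKM. With 1 ground control leaf library left out, the fold lay between 125 and 183 for AT3G22600 and between 101 and 146 for AT4G12520. The leaf minus root difference was -6.82 for AT3G22600 (standard error 0.24, limma adjusted p = 9.12e-08) and -6.75 for AT4G12520 (standard error 0.27, limma adjusted p = 1.53e-07), ranks 8 and 9 from the lowest of 608 genes. AT1G62510 was the other way round, 10.7-fold higher in leaf, with a difference of 3.23 (standard error 0.15, limma adjusted p = 3.80e-07). KCS1 differed least, by -0.56 (standard error 0.16, limma adjusted p = 0.0127), below the 2-fold threshold. On the ground 3 of the 4 passed both thresholds, 1 higher and 2 lower in leaf, against 67.8% of listed genes, 22.2% higher and 45.6% lower. Leaf and root did not overlap for 4 of 4 genes, 1 higher and 3 lower, against 83.1% of listed genes, 30.3% higher and 52.8% lower.

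In spaceflight the organs stood closer together for the lipid transfer proteins and further apart for KCS1. This is the contrast of the leaf with the root effect given above, not a further result. Its leaf part listed the genes, and for KCS1 it failed in 5 of 17 alternative runs. The leaf minus root difference there was -4.53 for AT3G22600 (limma adjusted p = 3.22e-06), -5.16 for AT4G12520 (limma adjusted p = 6.42e-07) and 1.89 for AT1G62510 (limma adjusted p = 0.00111). These are folds of the means of 22.3 and 36.3 in favour of root for AT3G22600 and AT4G12520 and of 3.97 in favour of leaf for AT1G62510. Without spaceflight leaf replicate 3 the fold of AT3G22600 was 34.4. Without spaceflight leaf replicate 1 the folds were 19.3, 46.4 and 4.63 for AT3G22600, AT4G12520 and AT1G62510. KCS1 had -1.32 (standard error 0.22, limma adjusted p = 0.000500), with 2.53-fold more in root, or 2.86-fold more without spaceflight leaf replicate 1. In spaceflight all 4 genes passed both thresholds, 1 higher and 3 lower in leaf, against 66.1% of listed genes, 32.6% higher and 33.6% lower. Leaf and root again did not overlap for 4 of 4 genes, against 79.6% of listed genes, 38.2% higher and 41.4% lower.

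**Figure D3:**
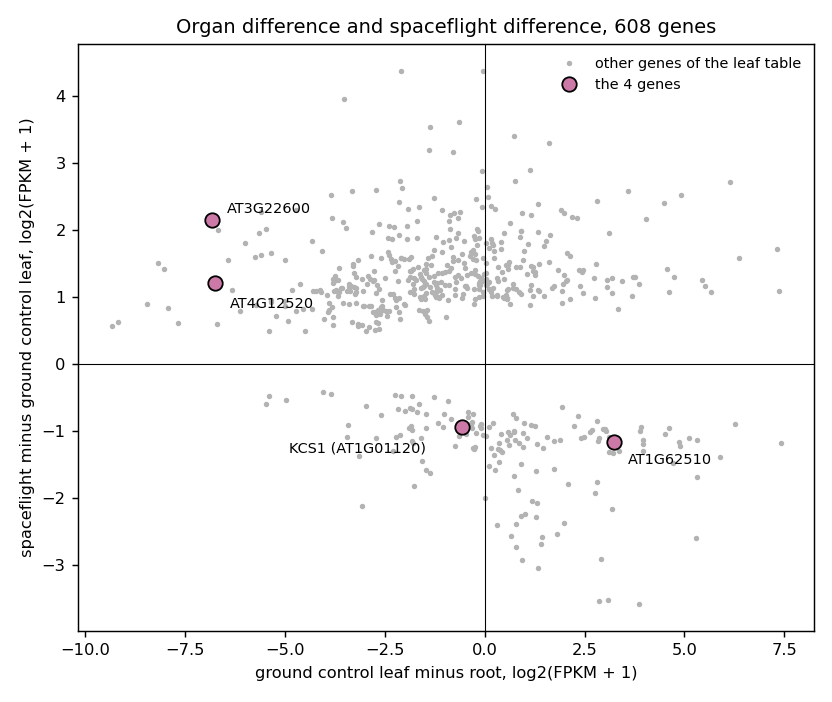
Each point is 1 of the 608 genes of the leaf table, with the ground control leaf minus root difference on the horizontal axis and the spaceflight minus ground control leaf difference on the vertical axis, both on the log2(FPKM + 1) scale and both using the ground control leaf libraries. AT3G22600 (-6.82, 2.15) and AT4G12520 (-6.75, 1.21) lie at the far left among root transcripts, AT1G62510 (3.23, -1.17) on the right and KCS1 (-0.56, -0.95) near the centre.

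Since AT3G22600 and AT4G12520 were root transcripts, their level in leaf was set beside that of the root marker. BGLU21 had 0.820, 1.02 and 2.12 FPKM in spaceflight leaves and 0.650, 0.340 and 0.420 FPKM in ground control leaves. Every spaceflight leaf was above every ground control leaf. The leaf means of BGLU21 were 2.81-fold apart, against 2.61-fold for AT4G12520 and 6.32-fold for AT3G22600. On the log2 scale the difference of BGLU21 was 0.62 and did not pass (limma adjusted p = 0.0656). At levels this low, the 1 FPKM added before the log makes a difference smaller. BGLU21 is in the leaf table because the authors called its leaf difference, so its direction in leaf was fixed by that choice, and the other 19 root markers give no value. As a share of the root level of the same replicate number, BGLU21 reached 0.153, 0.196 and 0.282% in spaceflight leaves and 0.0671, 0.0409 and 0.0551% in ground control leaves. The corresponding shares of AT3G22600 were 3.02, 3.02 and 7.10% in spaceflight and 0.861, 0.310 and 0.798% on the ground. Those of AT4G12520 were 3.72, 3.08 and 1.50% in spaceflight and 0.409, 1.02 and 1.07% on the ground. For each replicate number the share of both genes was above that of BGLU21. The spaceflight difference of BGLU21 also differed between leaf and root, by 1.14 (limma adjusted p = 0.0105), with -0.52 in root. The part of root material in the leaf values was not tested.

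The ratio of AT3G22600 to AT4G12520 spread more widely in leaves than in roots. In leaves it was 0.528, 0.677 and 3.28 in spaceflight and 1.06, 0.180 and 0.477 on the ground. In roots it was 0.650, 0.690 and 0.692 in spaceflight and 0.506, 0.594 and 0.639 on the ground. Spaceflight leaf replicate 3, the highest leaf library for AT3G22600 and BGLU21, was the lowest of the spaceflight leaves for AT4G12520. AT1G62510, a leaf transcript, was set beside the leaf markers in root. LHCB2.2 had 33.1, 50.5 and 18.5 FPKM in spaceflight roots and 17.5, 12.9 and 11.7 FPKM in ground control roots, and as with AT1G62510 spaceflight root replicate 3 was the lowest of the spaceflight roots. LHCB1.2 had 158, 235 and 97.65 FPKM in spaceflight roots and 76.9, 76.1 and 69.35 FPKM in ground control roots, and LHCB4.2 had 32.3, 58.6 and 27.9 FPKM in spaceflight roots and 16.7, 18.3 and 21.1 FPKM in ground control roots. Among spaceflight roots the 3 leaf markers were highest in replicate 2, whereas AT1G62510 was highest in replicate 1 (11.1 against 8.77 FPKM in replicate 2). All 3 markers were listed by the authors for their root difference. The part of leaf material in the root values was not tested.

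**Figure D4:**
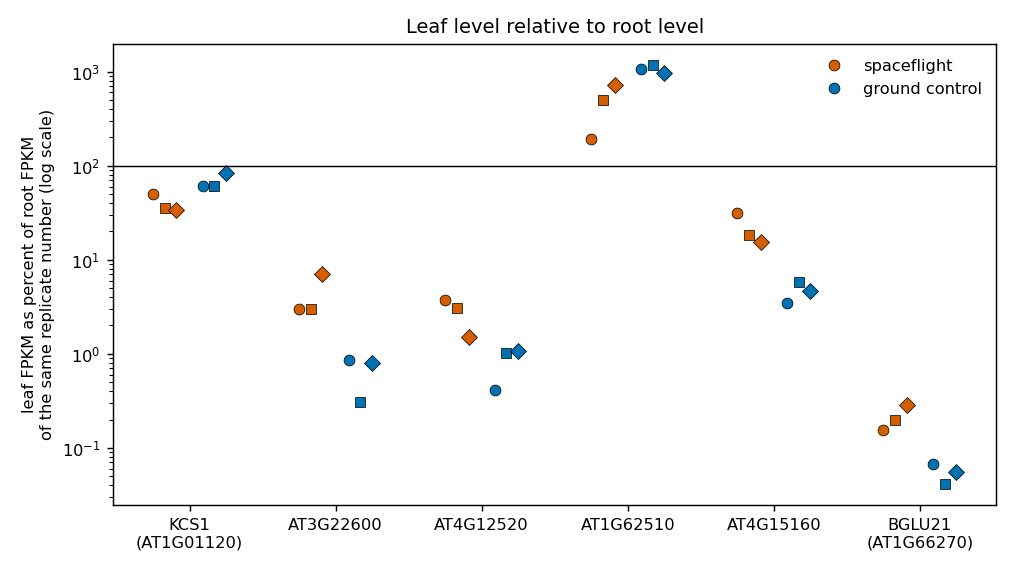
Leaf FPKM as a percent of the root FPKM of the same replicate number, on a log axis, for the 4 genes, AT4G15160 and the root marker BGLU21, in spaceflight (left, orange) and ground control (right, blue), with circles, squares and diamonds for replicates 1, 2 and 3. AT3G22600 and AT4G12520 lie at 1.50 to 7.10% in spaceflight and BGLU21 at 0.153 to 0.282%.

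Few other genes of the pathway are in the tables. The share of all genes of the genome that the tables hold was not worked out. The counts of listed genes here and in the next paragraphs are therefore no result about these families. Of 21 KCS genes 2 are listed for leaf, KCS1 and KCS12. KCS12, another 3-ketoacyl-CoA synthase, had 21.9, 46.9 and 47.4 FPKM in spaceflight leaves, against 10.7, 17.5 and 17.4 FPKM in ground control leaves. It rose, with a log2 difference of 1.25 (standard error 0.36, limma adjusted p = 0.00709), where KCS1 was lower. In roots KCS12 stood at only 1.03 ± 0.256 FPKM in spaceflight and 0.890 ± 0.213 FPKM on the ground (SD, n = 3 each), so the enzymes also differed in organ.

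Of 9 regulators of wax and cutin, 1 is listed, DEWAX (AT5G61590, also ERF107), a repressor of wax biosynthesis genes, and it is in both tables. It had 76.3, 94.1 and 94.25 FPKM in spaceflight leaves, against 22.1, 35.4 and 39.3 FPKM in ground control leaves. It rose in leaf (log2 difference 1.46, limma adjusted p = 0.00187). In roots DEWAX had 30.8, 62.9 and 33.5 FPKM in spaceflight and 17.1, 11.2 and 12.5 FPKM on the ground, with a log2 difference of 1.52 (limma adjusted p = 0.0534 over the rows of the leaf table). The authors listed DEWAX for its difference in each organ, so neither test is independent evidence. None of 13 genes of the elongase and of wax synthesis and export, and none of 16 genes of cutin and suberin, is in the tables used here, which are shorter than the lists the paper counts, and these genes were not analysed here.

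Of 30 genes of the lipid transfer protein fold 4 are in the leaf table used here, the 3 above and AT4G15160, annotated in the same superfamily. AT4G15160 had 15.4, 11.8 and 10.3 FPKM in spaceflight leaves, against 2.57, 4.05 and 2.99 FPKM in ground control leaves, and rose (log2 difference 1.68, limma adjusted p = 0.000638). Its leaf difference is again what listed it, so this test is no independent evidence. In roots AT4G15160 had 49.1, 64.9 and 66.3 FPKM in spaceflight and 73.55, 70.2 and 64.1 FPKM on the ground, which overlapped. AT3G22600, AT4G12520 and AT4G15160 are among 85 genes of the leaf table whose ground control root mean plus 1 FPKM was at least 10 times that of ground control leaf. Of these 85, 78 had a higher mean in spaceflight leaf than in ground control leaf. Among the 39 genes with the reverse organ difference, 20 did. Of all 608 genes, 68.1% were higher in spaceflight leaf without overlap, a stricter measure. The direction of the 3 genes was thus the common one among root transcripts and in the whole table. The organ class and the spaceflight difference both use the ground control leaf libraries. The same superfamily or enzyme name occurs in 160 genes of the RefSeq annotation, of which 6 are in either table, those already named.

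The genes of the leaf table whose pattern over the 12 libraries was most like each of the 4 were also found. For AT3G22600 they were F6'H1, an oxygenase of scopoletin synthesis (Pearson r = 0.998), VSR5, a vacuolar sorting receptor (0.996), and the chitinase family gene AT1G02360 (0.996). For AT4G12520 they were AT1G35250, a thioesterase superfamily gene (0.996), AT2G25260, annotated as a Hyp O-arabinosyltransferase-like protein (0.995), and AT4G12450, a zinc finger gene (0.995). AT1G62510 was most like the B-box zinc finger genes AT4G27310 (0.976) and BBX18 (0.974) and the gene UP6 (0.972). KCS1 was most like the co-chaperone gene BAG6 (0.981), the transcription factor gene ERF034 (0.967) and ATL13, a RING-H2 gene (0.965). Among the 4 themselves AT3G22600 and AT4G12520 had an r of 0.968 with each other, and of -0.967 and -0.956 with AT1G62510. These coefficients are over log2(FPKM + 1) of 12 libraries in 4 groups and are a description. For the lipid transfer protein genes the large organ differences weigh heavily in them. Within leaves the ratio of AT3G22600 to AT4G12520 ran from 0.180 to 3.28.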

How the data were processed

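RNA-seq of 12 libraries in 4 groups of 3 was used. Per the paper, the authors used FastQC and Trimmomatic for read quality, STAR for alignment to the TAIR10 genome and RSEM for gene expression. The versions of these tools were not stated in any source at hand. The deposited tables give the FPKM of each library, and the authors' mean CPM of each group. The headers do not name the FPKM unit. It was taken from the paper's methods and checked: dividing the mean CPM by the mean FPKM gave a value that increased with the length of the gene, with a Spearman's rho of 0.789 in the leaf table (531 genes) and 0.761 in the root table (55 genes). The tables list genes called by the authors with edgeR among genes that reached more than 5 CPM in 3 or more libraries; their fold changes, p-values and FDR were not used. The depth per library is unknown, so no counting interval can be given.

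log2(FPKM + 1) of all 608 rows of the leaf table was fitted with limma 3.58.1 in R 4.3.3 in the 2 groups compared, or in all 12 libraries for the contrast of the leaf with the root effect, with Benjamini-Hochberg adjustment over the 608 rows. Calls need an adjusted p under 0.05 and a 2-fold change, except for that last comparison, which needs the p alone. Intervals are limma's 95% intervals. Alternatives were a pseudocount of 0.1, a filter of at least 1 FPKM in at least 3 libraries, the rows of both tables, a replicate block, 1 fit of all 4 groups, an intensity trend, and leaving out each library. The limma test was tested on simulated data with known changes. The genes and gene lists were chosen with earlier results of these data known. Named are the 4 genes, each listed gene of those lists or with the family names in its annotation, and the 3 rows of highest Pearson correlation with each of the 4.

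Per the paper, leaf and root samples were dissected from the same plants of each plate. That libraries with the same number share a plate was inferred from the titles. Deviations from group means of same-numbered leaf and root libraries correlated at 0.02, 0.07 and -0.03 in spaceflight and 0.08, 0.42 and 0.24 on the ground. Those of differently numbered libraries lay between -0.17 and 0.14 in spaceflight and between -0.39 and 0.18 on the ground. Positions and sequences are from TAIR10.1 (RefSeq), which matched 605 of 608 leaf identifiers; the tables hold no coordinates. Python 3.11.15, pandas 2.3.3, numpy 2.4.6, scipy 1.17.1 and matplotlib 3.10.9 were used. Methylation was not analysed here.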

Additional observations from a re-analysis of the deposited data

Results flagged for a closer look

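The spaceflight difference in leaf and in root was itself compared for each of the 4 genes. The comparison passed for all 4, and for 75.8% of the 608 listed genes. For KCS1 it failed in 5 of 17 alternative runs. The leaf minus root difference of the spaceflight effect was 2.29 for AT3G22600 and 1.58 for AT4G12520, which rose in leaf and had -0.14 and -0.38 in root. It was -1.34 for AT1G62510, which fell in leaf and had 0.17 in root, and -0.77 for KCS1, which had -0.95 in leaf and -0.19 in root. The limma adjusted p-values were 0.00169, 0.0081, 0.0146 and 0.0264 in that order. The leaf libraries had been used by the authors to list these genes, so the size of the leaf effect is not independent of the choice.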

How the results depend on the processing

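Of the 4 genes, 3 passed in leaf in the fit as reported and 2 to 3 under the alternatives, 0 in root throughout, 3 in the organ comparison on the ground and 4 in that in spaceflight throughout, and 4 in the contrast of the leaf with the root effect (3 to 4 under the alternatives; 3 with the replicate block by plate). Leaving out 1 library gave the ranges 2 to 3, 0 to 0, 3 to 3, 4 to 4 and 3 to 4. The 1 change of sign was AT1G62510 in root without spaceflight root replicate 1, at -0.081 (limma adjusted p = 0.88), within -0.081 to 0.52 over the alternatives. The count of listed genes past the thresholds in root was 1, against 12 with the filter on low values, 4 with the replicate block and 6 with all 4 groups in 1 fit. It was 0 to 21 when a library was left out, and the cause of these changes was not tested. With the rows of both tables the count was 23, and the rows added there are genes that the authors listed for their root difference. In the other comparisons it stayed within 1.5 times. The replicate block changed no other call of the 4 genes; in leaf and root the spaceflight and ground control plates share only a number. Between the alternatives, the leaf difference lay between 1.71 and 2.55 for AT3G22600, 0.91 and 1.53 for AT4G12520, -1.42 and -0.92 for AT1G62510 and -1.11 and -0.82 for KCS1. Depth is unknown, and a root change under 2-fold could not be called by definition.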
